A study of Sebastes schlegelii with 6 samples.

Results

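The enzymes that build triglyceride from glycerol, phosphatidate and diacylglycerol were followed at the transcript level in whole liver of the Korean rockfish, Sebastes schlegelii, a bony fish of the sea. Members were the genes whose symbol was gpam, agpat2, agpat3, lpin1, lpin2, dgat1, dgat2 or mogat2, ignoring case and allowing a paralog letter, with every copy kept. They came to 12 of 19303 genes in the count table, for 7 of the 8 names, and agpat2 is not analysed here. There was 1 gene each for GPAM, Agpat3 and mogat2-a, a pair each for Lpin1, DGAT1 and dgat2, and 3 for Lpin2. Copies of a name are numbered by their mean FPKM over the 6 libraries, highest first.

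Liver of rockfish starved for 72 days (3 libraries) was set against liver of rockfish fed over 72 days (3 libraries). The labels give no strain, sex, age, diet or tank for either group, and they do not say whether each library is 1 fish. The p-values therefore measure the spread between these libraries, which may be technical. The series title frames the study as a search for the response to starvation.

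In the glycerol phosphate pathway, a first fatty acid is joined to glycerol 3-phosphate by glycerol-3-phosphate acyltransferases, and a lysophosphatidate acyltransferase adds the next one to give phosphatidate. Lipins remove the phosphate to give diacylglycerol. Diacylglycerol acyltransferases then add the last fatty acid, and a shorter route reaches diacylglycerol from monoacylglycerol through monoacylglycerol acyltransferases. Known work in mammals places DGAT1 and DGAT2 in unrelated protein families, and puts DGAT2 and MOGAT2 in the same one. Liver uses the product for lipid droplets and for lipoproteins.

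Total counts were 13469708, 14083166 and 14716282 in starved replicates 1 to 3, and 11623356, 13029074 and 12291377 in fed replicates 1 to 3. Fed replicate 1 stood apart: 41.7% of its uniquely mapped reads were spliced, against 50.8% to 53.3% in the starved libraries and 50.7% and 51.1% in the other fed ones. For the members and the pathway genes listed beside them, calls that changed without it are given with and without it. Defining hepatocyte markers were abundant, with 17 genes for 11 of the 12 listed symbols summing to between 152413 and 188827 scaled CPM in starved and between 134531 and 277762 scaled CPM in fed liver. Scaled CPM are read counts on the CPM scale, divided by library sizes corrected with trimmed-mean (TMM) factors. Markers of exocrine pancreas summed to 16.9, 19.96 and 325 scaled CPM in the starved livers and to 17.7, 70.8 and 13.7 scaled CPM in the fed livers. The 3 adipocyte markers found, of 5 listed, summed to between 25.4 and 39.2 scaled CPM in starved and between 31.3 and 57.8 scaled CPM in fed liver, with FABP4 at 0 in 5 of the 6 libraries. CIDEC made up most of that sum, with 38.7, 22.7 and 27.5 scaled CPM in starved and 57.3, 38.9 and 28.5 scaled CPM in fed livers. Red cell markers lay between 9.21 and 45.7 scaled CPM in starved and between 31.3 and 79.2 scaled CPM in fed liver. Macrophage markers lay between 236 and 286 scaled CPM in starved and between 216 and 309 scaled CPM in fed liver. Of the tested markers, 1 hepatocyte gene of 16 and 1 pancreatic gene of 8 fell. AHSG, a secreted liver glycoprotein, had 2536, 2828 and 2958 scaled CPM in starved and 12121, 5463 and 11261 scaled CPM in fed livers (edgeR adjusted p = 0.0449). Prss2, a trypsinogen, had 0.425, 0.132 and 0.147 scaled CPM in starved and 9.63, 4.63 and 4.46 scaled CPM in fed livers (edgeR adjusted p = 0.00643). The other tested pancreatic genes went the other way, with log2 fold changes from 0.89 to 3.18, and none of them was called. The part of these cells in the results was not tested.

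All 12 members passed the filter on low counts. Of these 12, 1 fell, a copy of DGAT1, and 0 rose (edgeR quasi-likelihood F test at an adjusted p under 0.05, by Benjamini-Hochberg over 13338 tested genes). Over all tested genes 2.98% fell and 2.18% rose. At an unadjusted p under 0.05, 3 members were lower and 1 was higher in starved liver, against 12.3% and 9.6% of all tested genes. The DESeq2 Wald test called 3 lower and 1 higher, against 7.14% and 5.26% of all genes. limma-voom called 1 lower and 0 higher, against 2.48% and 1.96% of all genes. limma with library quality weights called 2 lower and 1 higher, against 8.07% and 7.13% of all genes. Without fed replicate 1, edgeR called 2 lower and 0 higher, against 6.5% and 5.81% of all genes. The median log2 fold change of the 12 members was -0.19, beside -0.03 over all tested genes, and the range ran from -2.16 to 0.85. The scaled CPM of the groups did not overlap for 5 members, 3 of them lower and 2 higher in starved liver. By FPKM, which is scaled to library totals without TMM factors, dgat2 copy 1 and Lpin2 copy 1 of these 5 overlapped. Over all tested genes 31.1% did not overlap in scaled CPM, 15.5% lower and 15.6% higher.

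**Figure D1:**
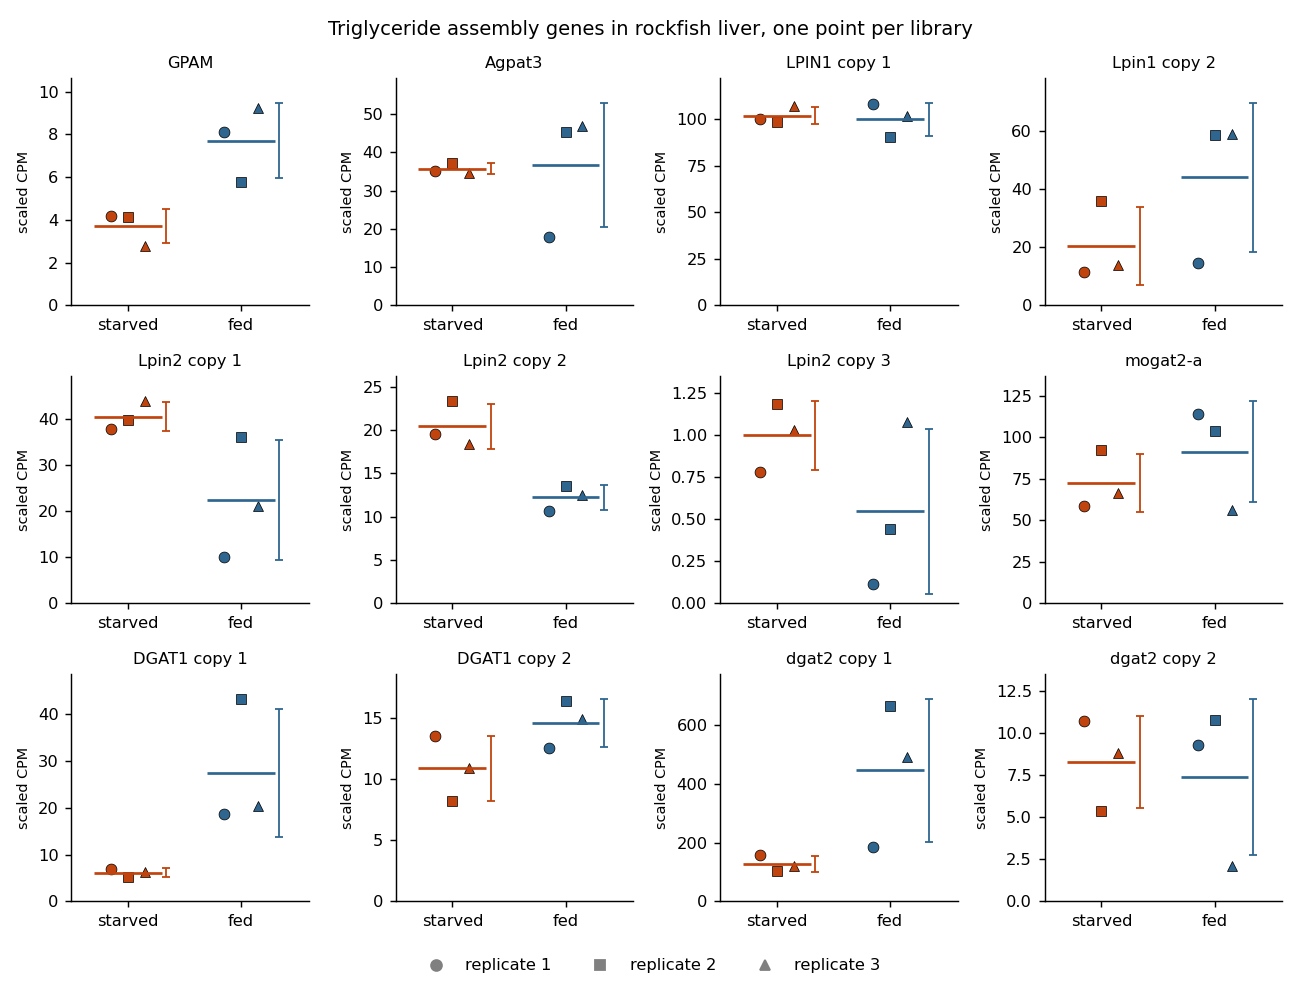
Scaled CPM (vertical axes, each starting at 0) of the 12 members, with 1 point per library, a horizontal line at the group mean and a bar of 1 SD (n = 3 per group). DGAT1 copy 1 and dgat2 copy 1 lie lower in all 3 starved livers than in any fed liver, and fed replicate 1, the circle among the fed points, is the lowest fed library for both.

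The last step of assembly held the member that fell. DGAT1 copy 1 (S.schlegelii_GLEAN_10014282), which encodes a diacylglycerol acyltransferase of the endoplasmic reticulum, had 6.94, 5.14 and 6.32 scaled CPM in starved replicates 1 to 3, against 18.7, 43.2 and 20.3 scaled CPM in fed replicates 1 to 3. All 3 starved livers were below all 3 fed livers, and fed replicate 2 was the highest library. It averaged 6.13 ± 0.91 scaled CPM in starved and 27.4 ± 13.7 scaled CPM in fed liver (SD, n = 3 each). The fall was 4.48-fold (log2 fold change -2.16, SE 0.37; edgeR adjusted p = 0.0192). In whole liver, fewer cells that express a gene and less RNA per cell cannot be told apart. The call held without any 1 of the fed libraries, with an edgeR adjusted p of 0.00893 without fed replicate 1. Without fed replicate 2 the log2 fold change was smaller, at -1.66 (edgeR adjusted p = 0.040). The call was lost when starved replicate 1, 2 or 3 was left out (edgeR adjusted p from 0.0873 to 0.103, log2 fold change from -2.26 to -2.05). It was also lost in both limma fits of the FPKM values (adjusted p = 0.0636 and 0.0651).

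The other DGAT1 gene, copy 2 (S.schlegelii_GLEAN_10008599), had 13.5, 8.24 and 10.9 scaled CPM in starved livers, against 12.5, 16.4 and 14.9 scaled CPM in fed livers. Starved replicate 1 lay inside the fed range, and the gene did not pass (log2 fold change -0.43, SE 0.27; edgeR adjusted p = 0.393). The 2 copies can be compared inside a library, where scaling cancels. By FPKM, which divides by coding length, copy 1 stood at 0.499, 0.607 and 0.562 times copy 2 in starved livers and at 1.45, 2.56 and 1.32 times copy 2 in fed livers. Copy 2 was thus the higher DGAT1 gene in every starved liver and copy 1 in every fed liver. The mean log2 ratio differed by -1.62 between the groups (exact two-sided permutation p = 0.1, the smallest that 3 against 3 libraries can give).

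The most abundant member was dgat2 copy 1 (S.schlegelii_GLEAN_10020616), encoding the other type of diacylglycerol acyltransferase, which works at the endoplasmic reticulum and on lipid droplets. It had 157, 104 and 120.1 scaled CPM in starved livers, against 184, 665 and 489.6 scaled CPM in fed livers. Fed replicates 2 and 3 were far above the starved livers, while fed replicate 1 was close above them. Its means were 127 ± 26.9 scaled CPM in starved and 446 ± 243 scaled CPM in fed liver (SD, n = 3 each). With all 6 libraries it did not pass (log2 fold change -1.81, SE 0.48; edgeR adjusted p = 0.0702). Without fed replicate 1 it fell, with a log2 fold change of -2.19, SE 0.26 (edgeR adjusted p = 0.00499). It also fell with the DESeq2 Wald test (adjusted p = 0.00204) and with quality weights (limma adjusted p = 0.00245), and it was not called in 13 of 16 alternatives. On the FPKM scale fed replicate 1 was inside the starved range, at 116 FPKM, with the starved livers at 139, 94.8 and 94.0 FPKM and fed replicates 2 and 3 at 681 and 438 FPKM.

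dgat2 copy 2 (S.schlegelii_GLEAN_10020769) was expressed at a small part of that level. It had 10.7, 5.34 and 8.81 scaled CPM in starved livers, against 9.28, 10.8 and 2.08 scaled CPM in fed livers. The groups overlapped, with both the highest and the lowest library among the fed (log2 fold change 0.17, SE 0.55; edgeR adjusted p = 0.887). By FPKM, copy 1 was 12.2, 16.3 and 11.4 times copy 2 in starved livers, against 16.6, 51.5 and 197 times in fed livers (exact two-sided permutation p = 0.1 on the log2 ratio). Copy 1 alone made up between 83.4% and 86.1% of the FPKM of the 4 DGAT genes in starved livers, and between 84.0% and 94.3% in fed livers.

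In the authors' deposited table, the ratio of starved over fed was 0.225 for DGAT1 copy 1 (q-value 1.43e-05) and 0.287 for dgat2 copy 1 (q-value 0.00222). These were the 2 members with a q-value under 0.05 in the authors' deposited table, in which 5.54% of genes were lower and 3.95% higher at that threshold; 0 members were higher there.

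**Figure D2:**
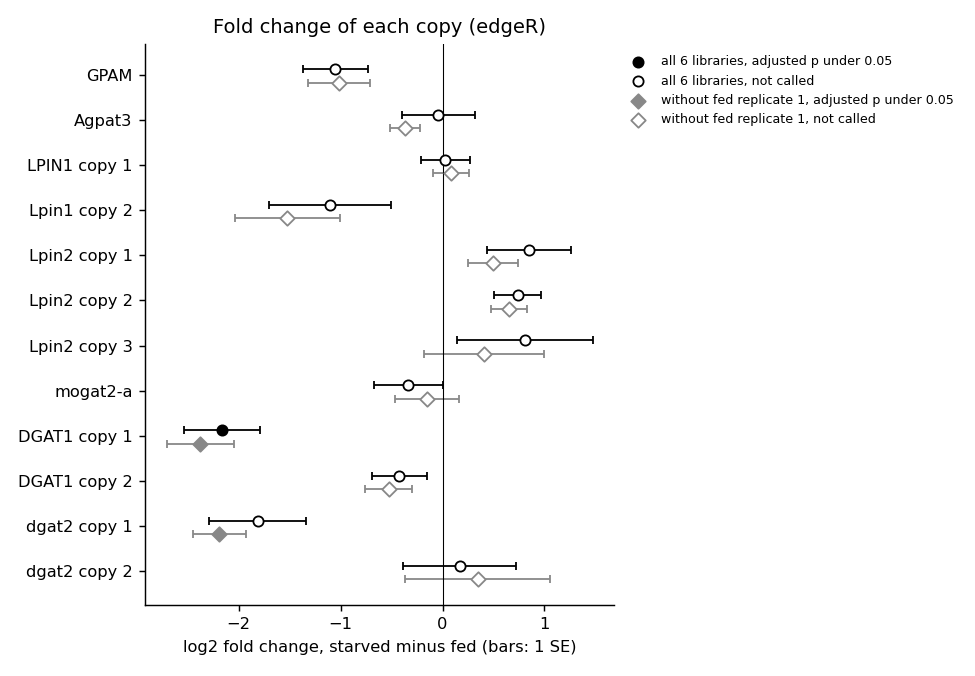
The log2 fold change, starved minus fed (horizontal axis), of each of the 12 members from the edgeR fit, with bars of 1 SE, for all 6 libraries (circles) and without fed replicate 1 (diamonds). Filled symbols mark an adjusted p under 0.05: DGAT1 copy 1 in both fits and dgat2 copy 1 without fed replicate 1.

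mogat2-a (S.schlegelii_GLEAN_10020615) encodes a monoacylglycerol acyltransferase, an enzyme known in mammals for fat absorption in the intestine. It had 58.7, 92.4 and 66.2 scaled CPM in starved livers, against 114, 104 and 56.5 scaled CPM in fed livers. Fed replicate 3 was the lowest of the 6 libraries, so the groups overlapped, and the gene did not pass (log2 fold change -0.33, SE 0.34; edgeR adjusted p = 0.602). Intestinal markers were looked for beside it. The 8 genes of that list summed to 533, 71.5 and 410.0 scaled CPM in starved livers and to 1101, 826 and 528 scaled CPM in fed livers. FABP2, a fatty acid binding protein, made up most of that sum, with 527, 62.7 and 403 scaled CPM in starved and 1094, 815 and 516 scaled CPM in fed livers. The 2 CDX1 genes, intestinal transcription factors, were at 0 in 4 and 5 of the 6 libraries, and VIL1 of the brush border had at most 3.29 scaled CPM. The part of intestinal tissue in the mogat2-a values was not tested. Within a library, dgat2 copy 1 was 2.27, 0.959 and 1.55 times mogat2-a by FPKM in starved livers, against 1.38, 5.46 and 7.39 times in fed livers (exact two-sided permutation p = 0.3 on the log2 ratio).

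The first step was represented by GPAM (S.schlegelii_GLEAN_10015114), the acyltransferase of the mitochondrial outer membrane. It had 4.18, 4.15 and 2.79 scaled CPM in starved livers, against 8.12, 5.77 and 9.24 scaled CPM in fed livers. The groups did not overlap. GPAM did not pass with edgeR (log2 fold change -1.05, SE 0.32; edgeR adjusted p = 0.102), and it passed in 1 of 16 alternatives, the DESeq2 Wald test (adjusted p = 0.0419). Its level was low: over the 3 starved livers 160 reads were counted, and over the 3 fed livers 281.

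GPAM was a minor part of the acyltransferases that share its reaction. Among the isoenzymes listed beside the members, gpat3, an acyltransferase of the endoplasmic reticulum, had 139, 110.5 and 144 FPKM in starved livers, against 75.2, 83.5 and 56.4 FPKM in fed livers. Every starved liver was above every fed liver, the opposite order to GPAM. In scaled CPM the order held by a narrow gap, with fed replicate 1 at 134.6 and starved replicate 2 at 136.3. The other starved livers had 176 and 206 scaled CPM, and the other fed livers 91.6 and 71.0. gpat3 did not pass with all 6 libraries (log2 fold change 0.80, SE 0.33; edgeR adjusted p = 0.202) and rose without fed replicate 1 (log2 fold change 1.09; edgeR adjusted p = 0.035). GPAM had 1.63, 1.67 and 0.962 FPKM in starved livers and 2.24, 2.60 and 3.64 FPKM in fed livers. It supplied between 0.59% and 1.31% of the FPKM summed over GPAM, gpat3, Gpat4 and agpat9l in starved livers, and between 2.42% and 4.79% in fed livers. Within libraries, the log2 ratio of GPAM over gpat3 averaged -6.56 ± 0.60 in starved and -4.68 ± 0.62 in fed liver (SD, n = 3 each; exact two-sided permutation p = 0.1). The log2 fold change of Gpat4 was 0.13 and that of agpat9l -0.15, both short of the threshold (edgeR adjusted p = 0.817 and 0.791).

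**Figure D3:**
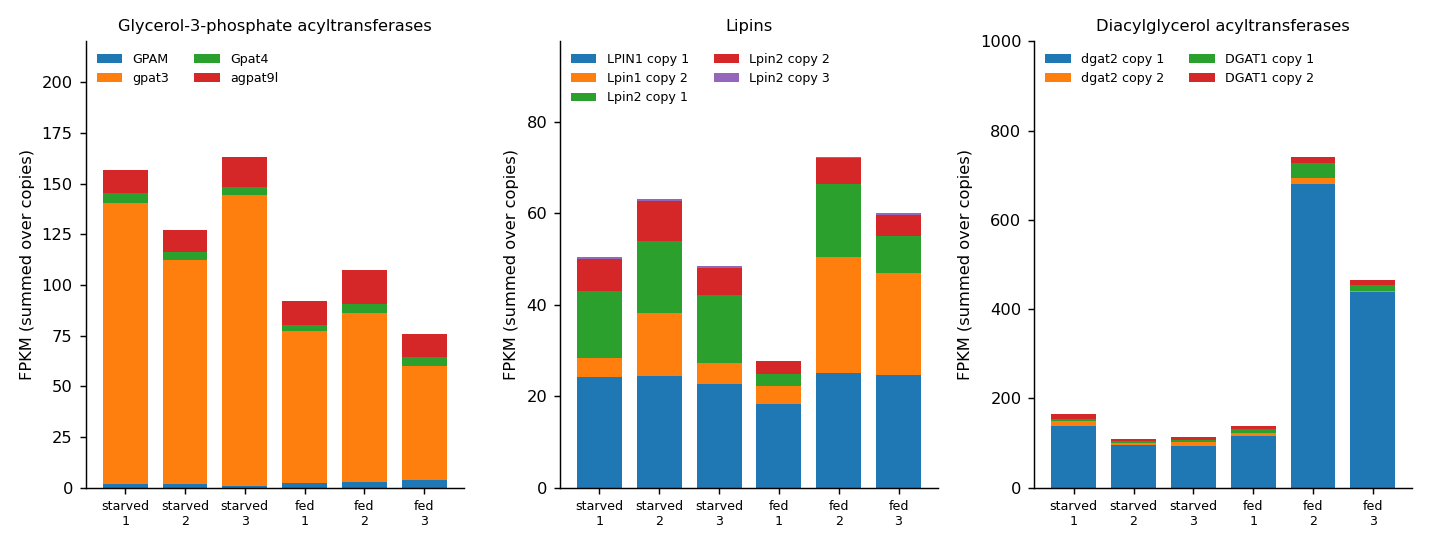
FPKM (vertical axes, per coding length) of the copies in 3 enzyme families, stacked by library, with the starved livers to the left of the fed livers. gpat3 and dgat2 copy 1 fill most of their bars in every library, and fed replicate 1 has the lowest lipin total, 27.7 FPKM.

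Agpat3 (S.schlegelii_GLEAN_10009804), a lysophosphatidate acyltransferase, had 35.2, 37.2 and 34.6 scaled CPM in starved livers, against 17.9, 45.1 and 46.9 scaled CPM in fed livers. The starved livers lay between fed replicate 1 below and fed replicates 2 and 3 above (log2 fold change -0.04, SE 0.36; edgeR adjusted p = 0.960). Without fed replicate 1 the log2 fold change was -0.37 (edgeR adjusted p = 0.153). Other enzymes of this family were AGPAT1, AGPAT5 and LCLAT1, the last known for remodelling cardiolipin, with log2 fold changes of 0.05, 0.59 and 0.66, none of which passed (edgeR adjusted p from 0.194 to 0.958). In starved livers Agpat3 lay between 27.6 and 34.6 FPKM and LCLAT1 between 29.7 and 41.0 FPKM, and in fed livers Agpat3 lay between 11.4 and 47.1 FPKM and LCLAT1 between 10.6 and 31.8 FPKM. TMEM68, an acyltransferase-like protein, had a log2 fold change of 0.65 (edgeR adjusted p = 0.513).

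Lipins, the phosphatidate phosphatases, were the largest group, with 5 genes, and the copies differed in direction. LPIN1 copy 1 (S.schlegelii_GLEAN_10019328) kept close to 1 level, with 100.003, 98.4 and 107 scaled CPM in starved livers and 108, 90.3 and 101 scaled CPM in fed livers. Its groups overlapped (log2 fold change 0.03, SE 0.24; edgeR adjusted p = 0.958). Lpin1 copy 2 (S.schlegelii_GLEAN_10020286) varied widely within both groups. It had 11.6, 36.0 and 13.8 scaled CPM in starved livers, against 14.5, 58.8 and 59.0 scaled CPM in fed livers. Starved replicate 2 was above the other starved livers and fed replicate 1 was within the starved range, and the gene did not pass (log2 fold change -1.11, SE 0.60; edgeR adjusted p = 0.321). With 1 library left out, the log2 fold change ranged from -1.79 without starved replicate 2 (edgeR adjusted p = 0.235) to -0.82 without starved replicate 1 (edgeR adjusted p = 0.596). Without fed replicate 1 it was -1.52 (edgeR adjusted p = 0.125). By FPKM, Lpin1 copy 2 stood at 0.179, 0.566 and 0.200 times LPIN1 copy 1 in starved livers, against 0.208, 1.01 and 0.898 times in fed livers (exact two-sided permutation p = 0.2 on the log2 ratio).

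The 3 Lpin2 genes had positive log2 fold changes, and none passed with edgeR. Lpin2 copy 1 (S.schlegelii_GLEAN_10022168) had 37.9, 39.8 and 44.0 scaled CPM in starved livers, against 9.97, 36.1 and 21.2 scaled CPM in fed livers. The starved livers were close together and all above the fed livers, of which replicate 2 came near them (log2 fold change 0.85, SE 0.42; edgeR adjusted p = 0.279). By FPKM the groups overlapped, with fed replicate 2 at 15.9 FPKM and the starved livers at 14.5, 15.6 and 14.8 FPKM. Without fed replicate 1, the lowest library, the log2 fold change was 0.50 (edgeR adjusted p = 0.233). Lpin2 copy 2 (S.schlegelii_GLEAN_10007389) had 19.5, 23.4 and 18.4 scaled CPM in starved livers, against 10.7, 13.6 and 12.5 scaled CPM in fed livers. All starved livers were above all fed livers, with a similar spread in both groups (log2 fold change 0.74, SE 0.23; edgeR adjusted p = 0.109). It passed in 2 of 16 alternatives, the DESeq2 Wald test (adjusted p = 0.0499) and limma with quality weights (adjusted p = 0.0488). Lpin2 copy 3 (S.schlegelii_GLEAN_10011844) had few reads, with 11, 18 and 14 counts in starved livers and 1, 7 and 14 counts in fed livers (log2 fold change 0.81, SE 0.67; edgeR adjusted p = 0.522). With 1 library left out, its log2 fold change ranged from 0.41 without fed replicate 1 (edgeR adjusted p = 0.707) to 1.68 without fed replicate 3 (edgeR adjusted p = 0.242).

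Summed over the 5 lipin genes, the starved livers had 50.3, 63.0 and 48.4 FPKM and the fed livers 27.7, 72.2 and 60.0 FPKM. The starved mean was 53.9 FPKM, and the fed mean was 53.3 FPKM with fed replicate 1 and 66.1 FPKM without it. The sums overlapped (exact two-sided permutation p = 0.9), while the copies took different shares of them. Lpin2 copy 1 held between 24.8% and 30.7% of the lipin FPKM in starved livers, against 9.75% to 22.1% in fed livers. Lpin2 copy 2 held between 12.2% and 14.1% in starved livers, against at most 9.89% in fed livers. For both copies each starved share was above each fed share. Lpin1 copy 2 held between 8.60% and 21.9% in starved livers, against 13.8% to 36.9% in fed livers, where the groups overlapped.

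**Figure D4:**
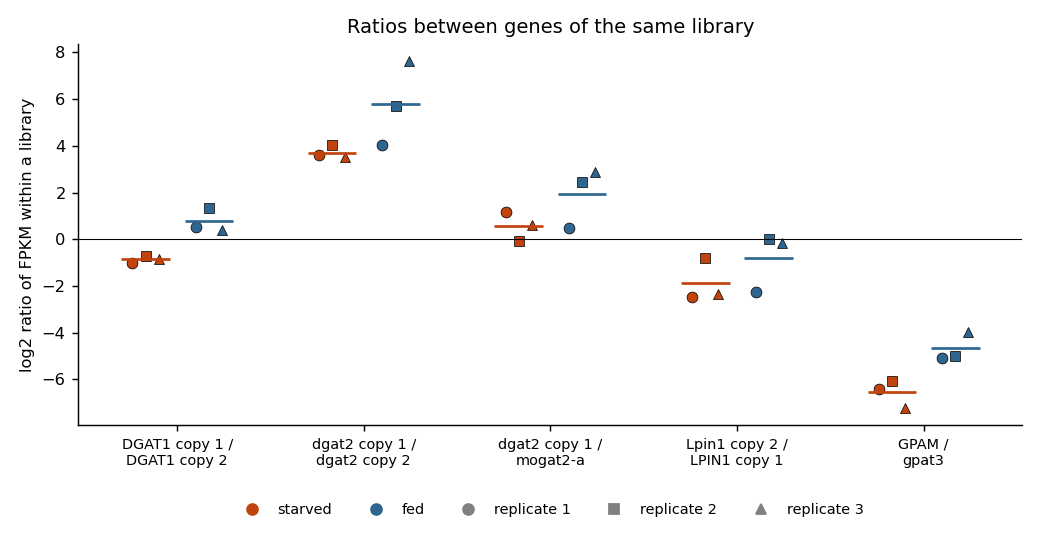
The log2 ratio of FPKM between a pair of genes in the same library (vertical axis), with 1 point per library and a line at the group mean. The ratios of DGAT1 copy 1 over copy 2, dgat2 copy 1 over copy 2 and GPAM over gpat3 are lower in every starved than in every fed liver, and the other 2 ratios overlap.

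These 5 within-library ratios were chosen after the values had been seen. Of the 5, 3 did not overlap between the groups, and the Benjamini-Hochberg adjusted value over the 5 was 0.167 for each of them (exact permutation test). The sum over the 4 diacylglycerol acyltransferase genes was 129 ± 30.5 FPKM in starved and 448 ± 302 FPKM in fed liver (SD, n = 3 each; exact two-sided permutation p = 0.2). The fed livers held 138, 741 and 464 FPKM, and the first of these was inside the starved range of 110.1 to 164 FPKM. This overlap depended on the scale, since FPKM carries no TMM correction. Summed in scaled CPM instead, every starved liver was below every fed liver. The log2 ratio of starved over fed was -1.79 by FPKM and -1.70 in scaled CPM. Without fed replicate 1 the fed mean was 603 FPKM.

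Ordered by FPKM, dgat2 copy 1 was the highest member in both groups, followed by mogat2-a, Agpat3 and LPIN1 copy 1. The first pair, dgat2 copy 1 and mogat2-a, overlapped in both groups, at 109 ± 25.6 and 73.5 ± 21.9 FPKM in starved liver and at 411 ± 283 and 89.2 ± 33.1 FPKM in fed liver (SD, n = 3 each). Both mogat2-a above Agpat3 and Agpat3 above LPIN1 copy 1 held without overlap in starved liver. In fed liver mogat2-a was above Agpat3 without overlap, while Agpat3 and LPIN1 copy 1 overlapped. Neighbours among dgat2 copy 2, Lpin1 copy 2, DGAT1 copy 2 and Lpin2 copy 2, which came next but for Lpin2 copy 1 in starved liver, did not differ beyond their spread. DGAT1 copy 1 had rank 10 of the 12 members in starved and rank 5 in fed liver, at 4.02 ± 0.60 and 18.9 ± 13.2 FPKM (SD, n = 3 each). It overlapped neither neighbour in starved liver, but in fed liver it overlapped both, LPIN1 copy 1 and Lpin1 copy 2. Lpin2 copy 3 was the lowest member, at 0.37 ± 0.09 FPKM in starved and 0.21 ± 0.19 FPKM in fed liver. Among all 19303 genes, dgat2 copy 1 ranked 407 by mean FPKM, mogat2-a 929 and GPAM 10481.

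Fed libraries varied more than starved ones over most genes. The SD of log2 scaled CPM was larger in fed liver for 74.7% of all tested genes and for 10 of the 12 members. Fed replicate 1 was the lowest fed library for 8 of the 12, against 43.0% of all tested genes. Fed replicate 2 was 3.61 times fed replicate 1 for dgat2 copy 1, 4.05 times for Lpin1 copy 2, 3.62 times for Lpin2 copy 1 and 2.53 times for Agpat3, all in scaled CPM. The ratio was 0.711 for GPAM and 0.838 for LPIN1 copy 1.

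**Figure D5:**
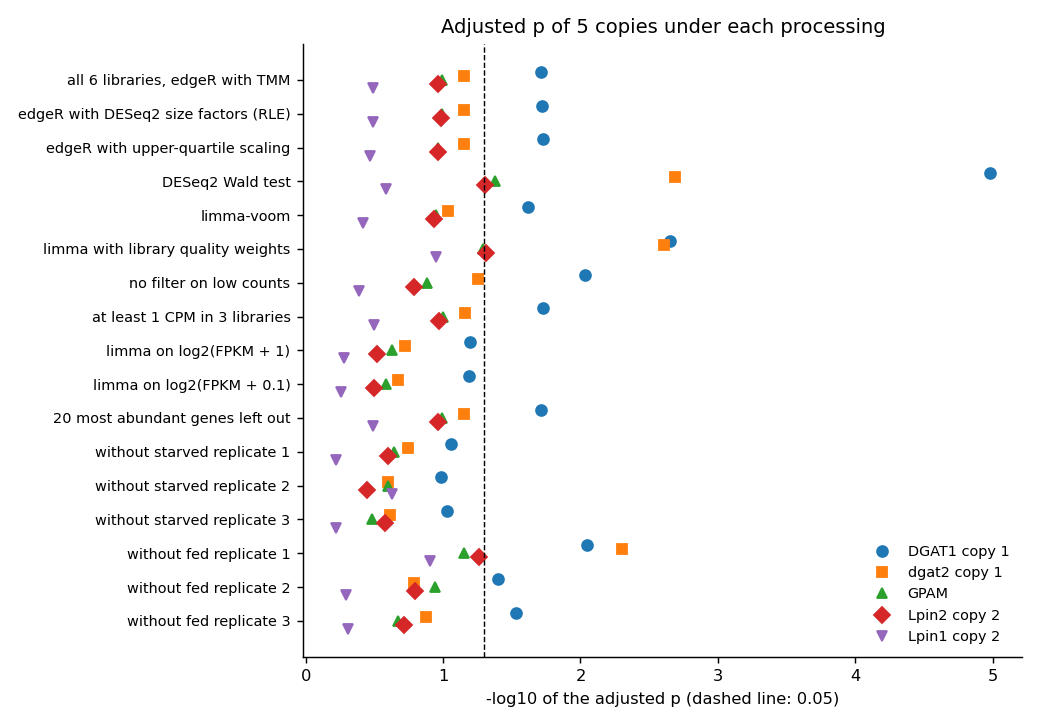
The adjusted p, as -log10 (horizontal axis), of 5 copies under each processing, with a dashed line at 0.05. DGAT1 copy 1 is right of the line in 11 of 16 alternatives, and left of it without any 1 starved library and in both FPKM fits; dgat2 copy 1 is right of it in 3.

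Enzymes around the pathway were read from 4 lists, 47 of whose 56 genes passed the low-count filter. Of the 47, 1 rose and 1 fell (edgeR), beside 2.18% of all tested genes that rose and 2.98% that fell, so these counts are near the background. In the supply of glycerol 3-phosphate, 1 of 10 tested genes rose and 0 fell. This was a gene for glycerol kinase, Gk, which phosphorylates free glycerol. It had 296, 199.6 and 242 scaled CPM in starved livers, against 27.7, 74.2 and 62.0 scaled CPM in fed livers. The rise had a log2 fold change of 2.17, SE 0.41 (edgeR adjusted p = 0.0244), and it was called without fed replicate 1 (adjusted p = 0.00717) but not without any 1 of the other libraries (adjusted p up to 0.103). Another Gk gene had means of 7.22 and 7.46 scaled CPM in starved and fed liver and did not pass (log2 fold change -0.05). In this list the DESeq2 Wald test and quality weights each called 2 genes higher, against 5.26% and 7.13% of all genes. limma-voom called 1 higher, against 1.96% of all genes. For the 0 that fell in this list, 1 was lower at an unadjusted p under 0.05, and the DESeq2 Wald test and quality weights called 1 each and limma-voom 0. The shares of all genes lower were 12.3% unadjusted, 7.14% with DESeq2 and 8.07% with quality weights.

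The tested gpd1 and gpd1l genes, for dehydrogenases that make the same substrate from a glycolytic intermediate, did not pass with edgeR. Nor did GPD2, the other dehydrogenase gene in this list (log2 fold change 0.55; edgeR adjusted p = 0.343). The abundant gpd1 gene had means of 160.4 ± 44.2 scaled CPM in starved and 151 ± 55.1 scaled CPM in fed liver (SD, n = 3 each; edgeR adjusted p = 0.912). A less abundant Gpd1 gene had 6.43 ± 0.95 scaled CPM in starved and 13.5 ± 5.29 scaled CPM in fed liver (edgeR adjusted p = 0.106). Both tested genes of AQP9, a glycerol channel, lay higher in every starved than in every fed liver without passing with edgeR (log2 fold changes 0.69 and 1.32; edgeR adjusted p = 0.243 and 0.131). Of all tested genes, 15.6% lay higher in this way in scaled CPM.

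Among the 25 tested genes of other enzymes that use phosphatidate or diacylglycerol, 1 fell and 0 rose. It was a gene for PLPP1, a lipid phosphate phosphatase of the plasma membrane, with 10.4, 2.97 and 6.17 scaled CPM in starved livers, against 71.1, 30.2 and 61.9 scaled CPM in fed livers. All starved livers were below all fed livers (log2 fold change -3.06, SE 0.51; edgeR adjusted p = 0.0172). Leaving out starved replicate 1, 2 or 3 took its adjusted p past the threshold, to 0.0887 at most. The other PLPP1 gene had 23.7 ± 1.55 scaled CPM in starved and 42.8 ± 12.7 scaled CPM in fed liver and did not pass (SD, n = 3 each; edgeR adjusted p = 0.116). For the 0 that rose, 3 were higher at an unadjusted p under 0.05, against 9.6% of all tested genes. The DESeq2 Wald test and quality weights called 1 each, against 5.26% and 7.13% of all genes, and limma-voom 0. Dgkz, a diacylglycerol kinase, had the smallest p of the 3, with a log2 fold change of 0.88. Its edgeR adjusted p was 0.0654, and leaving out fed replicate 1 brought it to 0.0276.

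Of the 7 isoenzymes and 5 droplet or lipin-control genes tested, edgeR called 0 in either direction. At an unadjusted p under 0.05, 3 isoenzymes were higher and 0 lower. Among the droplet or lipin-control genes 0 were higher and 1 lower, cnep1r1 (log2 fold change -1.16; edgeR adjusted p = 0.182). Over all tested genes 9.6% were higher and 12.3% lower at that threshold. The DESeq2 Wald test and limma-voom called 0 in both lists, and quality weights called 1 isoenzyme higher, against 7.13% of all genes. BSCL2, the seipin of droplet budding, had 3.63 ± 0.90 scaled CPM in starved and 4.69 ± 0.98 scaled CPM in fed liver (SD, n = 3 each; edgeR adjusted p = 0.554), and fitm2, an endoplasmic reticulum protein of droplet formation, had 5.26 ± 1.66 and 4.14 ± 1.24 scaled CPM in starved and fed liver (edgeR adjusted p = 0.624).

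The genes whose pattern over the 6 libraries was most like that of DGAT1 copy 1 were TSTA3, Mblac2, PKP1, Baiap2l1 and LUM. Likeness was the root mean square difference of centred log2 CPM, which was 0.13 for TSTA3, 0.14 for Mblac2, 0.16 for PKP1 and 0.23 for both Baiap2l1 and LUM. TSTA3, an enzyme of GDP-fucose synthesis, had 5.95, 4.02 and 6.32 scaled CPM in starved livers, against 17.9, 36.1 and 16.3 scaled CPM in fed livers. The 5 genes were picked for this likeness, so their log2 fold changes, from -2.53 to -1.86, are a description.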

How the data were processed

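Liver RNA went into libraries with a TruSeq stranded mRNA kit, read as paired ends, per the labels' protocols. The submitters' processing notes list Trimmomatic, HISAT2, Cufflinks and HTSeq without version or setting. Neither the genome build nor the strand setting of the counting is given in the sources used here. Near-identical copies and overlapping genes may share reads.

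Counts, as deposited by the authors, are unnormalized whole numbers. The authors' deposited FPKM values scale each count to its library total and to 1 length per gene, a multiple of 3 for 100% of genes, so a coding length (987 to 4347 bases among the members). For each gene, the authors' deposited comparison holds a q-value, from an unnamed test, and a starved-over-fed ratio. This ratio had the sign of the FPKM group ratio for 96.8% of genes. Other deposited tables give the GC percent and the spliced reads of each library, per the file headers.

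The main test was that of edgeR 4.0.16, run in R 4.3.3 (filterByExpr defaults, 13338 genes kept, TMM scaling, robust quasi-likelihood F test, Benjamini-Hochberg adjustment over all tested genes). An SE is the log2 fold change divided by the square root of F. limma 3.58.1 and DESeq2 1.42.0 served as alternatives, with other scalings, filters and pseudocounts (1 and 0.1 on FPKM), the 20 most abundant genes left out, and each library left out in turn. On simulated counts of starved against fed over 13144 tested genes, the test called 3 of 50 genes simulated at 2-fold, 41 of 50 at 4-fold and 48 of 50 at 8-fold. Replicates within a group differed by a chi-square per degree of freedom between 33.6 and 149, so none was the same library read again. Whether they came from separate fish cannot be told from these values.

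Members and lists were chosen with earlier results of these data known. All members were named, with the called genes of the other lists, the isoenzymes of the members, and the 5 genes most like the called member. Genes of the lists named beside these were chosen after their values were seen.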

Additional observations from a re-analysis of the deposited data

How the results depend on the processing

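No paired analysis was possible because the replicate numbers follow accession order and the labels pair no samples. The number of genes changed was 688, and it was 1655 with the DESeq2 Wald test, 2027 with library quality weights and 445 with limma on log2(FPKM + 0.1); it was 102, 146 and 131 without starved replicate 1, 2 and 3, and 1704, 232 and 469 without fed replicate 1, 2 and 3. The 1 member that fell became 3 with DESeq2, 2 with quality weights, and 0 in both FPKM fits; with 1 library left out it ranged from 0 to 2. The 0 members that rose became 1 with DESeq2 and 1 with quality weights. Agpat3, at -0.04, had log2 fold changes of 0.095 with limma-voom, 0.12 on log2(FPKM + 1) and 0.13 on log2(FPKM + 0.1), and ranged from -0.37 to 0.18 with 1 library left out. LPIN1 copy 1 ranged from -0.033 to 0.084 and dgat2 copy 2 from -0.28 to 0.57 with 1 library left out. The cause of these differences was not tested. The fits that left 1 library out also had fewer libraries. The direction of the other 9 members was kept in every alternative. Lpin2 copy 3 had no value with at least 1 CPM required in 3 libraries. The FPKM of each step, summed over members alone and without the other isoenzymes, moved by less than the spread between replicates. This held with 1 library left out and in scaled CPM. Some signs changed within that spread. Without fed replicate 2, the log2 ratio of lysophosphatidate acylation went from -0.11 to 0.21. Monoacylglycerol acylation went from -0.28 to 0.041 in the same fit. Phosphatidate dephosphorylation went from 0.016 to -0.29 without fed replicate 1. The glycerol-3-phosphate and diacylglycerol acylation steps stayed negative. The former held GPAM alone, so its sign does not describe the whole step: gpat3, far more abundant, was higher in every starved liver. With 3 libraries per group, simulated 2-fold changes were called for 3 of 50 genes, which limits what can be said of members with log2 fold changes near 1. The simulation called 151 genes in all, against 688 in the data. Its adjusted p was therefore harder to pass, and the share called may not carry over to the data.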
